A study of Mus musculus with 8 samples.

Results

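Germinal center B cells of mice with a B cell knockout of Jmjd1c were compared with activated B cells of the same genotype, using 4 of the 8 libraries of the series. The libraries were chosen by their titles and labels: 2 libraries of spleen germinal center B cells sorted by FACS, and 2 of spleen B cells that were isolated with pan-B biotin and streptavidin beads before stimulation in vitro. All 4 came from C57BL/6 mice with the genotype Jmjd1c B KO, here KO. The other 4 libraries are the same pair of preparations from WT C57BL/6 mice, with 2 libraries each, and serve here as a separate estimate of the same cell type difference. The sources used here give neither the stimulus, the Cre line, the deleted exons, the age nor the number of mice. Nothing in the labels says that replicates are separate animals, and all p-values therefore measure the spread between these libraries, which may be technical. Both groups carry the knockout, so the comparison asks which differences of the germinal center state are present in the knockout.

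Germinal centers are sites in B cell follicles where B cells that met antigen divide, mutate their antibody genes and compete for T cell help. Cells cycle between a dark zone, where they divide and mutate the antibody genes, and a light zone, where they test the new receptor. The repressor BCL6 maintains the state, and receptors such as S1PR2 hold the cells in the follicle. Jmjd1c belongs to the Jumonji family of histone H3K9 demethylase genes. The activated B cells were stimulated in culture according to their labels. Every value below is therefore a difference between a tissue-derived cell and one labelled as cultured, not a change over time.

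Each of the 4 KO libraries held 8777425 to 9438353 counts on genes. The common biological coefficient of variation was 3.35%. Levels are given as CPM, counts relative to library size, under 1 scaling over all 8 libraries. Before the scaling factors, 1 CPM rests on about 8.78 to 9.44 counts in a KO library. The factors were 0.932 and 0.929 for germinal center and 1.06 and 1.06 for activated KO libraries. A scaled CPM thus rests on fewer counts than this in the germinal center and on more in the activated libraries. Fold changes are log2 differences, germinal center minus activated, from a fit of the 4 KO libraries alone (edgeR's quasi-likelihood test, with a gene passing at a Benjamini-Hochberg adjusted p under 0.05). Mitochondrially encoded transcripts took 9.20% and 9.52% of the counts in germinal center and 2.66% and 2.54% in activated KO libraries. These libraries measure bulk RNA, so fewer cells of a type and less RNA per cell cannot be told apart.

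The labelled cell types were checked against defining markers. Germinal center markers were present in the KO germinal center libraries and, apart from Bcl6, low in the activated ones. S1pr2, the follicle-retention receptor gene, read 305 and 294 CPM in germinal center and 5.06 and 4.29 CPM in activated B cells. Fas, a death receptor gene high on germinal center B cells, read 113 and 113 CPM in germinal center and 8.8 and 8.77 CPM in activated B cells. Bcl6 was higher in germinal center but not low in activated B cells, at 293 and 309 against 121 and 130 CPM. The B cell receptor gene Cd79a (620.4 and 647 CPM in germinal center and 592 and 551 CPM in activated B cells) was present in all 4. The name activated follows the labels. The libraries so labelled went less clearly with it, and most of the activation markers checked were lower in them than in germinal center B cells. Il2ra, the interleukin-2 receptor alpha chain gene, was higher in them, at 33.0 and 32.9 against 2.45 and 2.62 CPM, and so was Cd44, an adhesion receptor gene of activated lymphocytes, at 98.1 and 95.5 against 87.1 and 83.8 CPM (log2 fold change -0.19). Myc, a growth gene, read 74.6 and 86.0 against 125 and 118 CPM (log2 fold change 0.58). The activation markers Cd86, Cd69, Cd83 and Batf were lower in them than in germinal center B cells, and Mki67, a marker of dividing cells, read 77.1 and 79.7 against 2236 and 2252 CPM.

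Markers of other cell types stood mainly on the activated side. The 13 neutrophil markers summed to 3.18 and 2.14 CPM in KO germinal center and 2357 and 1949 CPM in KO activated libraries, and 7 of the 13, among them Camp and Retnlg, had no count in either KO germinal center library. Erythroid markers, 12 genes, summed to 71.2 and 84.5 against 1165 and 974 CPM. Monocyte and macrophage markers, 20 genes, summed to 253 and 271 against 1956 and 1794 CPM. All 13 neutrophil and all 12 erythroid markers were lower in germinal center B cells, as were 12 of 19 tested monocyte and macrophage markers. T cell markers, of which 10 of 15 tested were lower in germinal center B cells, differed little in sum (133 and 125 against 158 and 152 CPM), of which the larger share came from Lck and Cd247 (an uncertain value, since exons of the opposite strand cover 56.4% of its exon length), while Cd3e was at 1.1 and 1.31 CPM in germinal center B cells. Dendritic cell markers (5 of 8 tested lower) summed to 179.7 and 170.5 against 170.2 and 164 CPM, and NK cell markers (2 of 3 tested lower) to 4.04 and 2.26 against 8.09 and 6.48 CPM. Platelet markers (3 of 3 tested lower) summed to 81.7 and 82.0 against 111 and 114 CPM. Stromal and follicular dendritic cell markers stayed under 4 CPM in sum in every KO library. The same lists in WT activated libraries summed to 626 and 550.5 CPM for neutrophil and 678 and 670.0 CPM for erythroid markers, so the activated preparations of both genotypes held these transcripts. Their part in the genes that were lower in germinal center B cells was not tested.

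**Figure D1:**
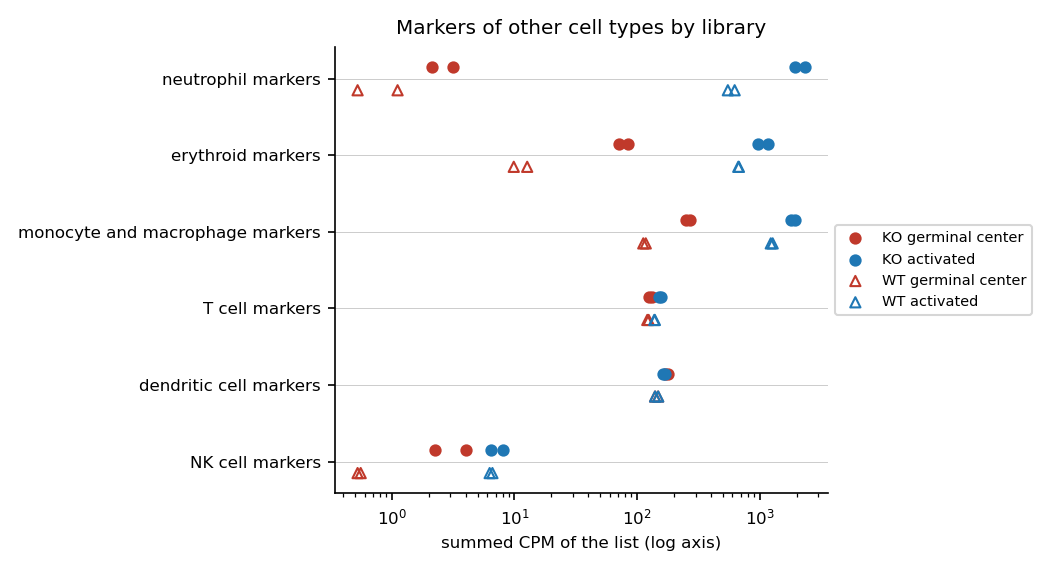
Summed CPM (log axis) of 6 marker lists in each library, with filled circles for KO, open triangles for WT, red for germinal center and blue for activated B cells. Neutrophil, erythroid and monocyte and macrophage sums of the 2 KO activated libraries lie far to the right of the 2 KO germinal center libraries, and the T cell and dendritic cell sums lie close together.

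Jmjd1c itself (chromosome 10, 67096125 to 67256326, plus strand, GRCm38) read 164 and 158 CPM in germinal center and 134 and 151 CPM in activated B cells of KO mice. The WT libraries read 194 and 181 CPM and 273 and 281 CPM. The 2 KO cell types did not overlap and lay close together, with a log2 fold change of 0.16 (SE 0.055, edgeR adjusted p = 0.0103), against -0.59 in WT (difference 0.74, SE 0.074). The small KO difference rests on single libraries, the tool and the scaling: without activated library 1 it was 0.07 (adjusted p = 0.245), without germinal center library 1 its adjusted p was 0.0506, with DESeq2 it was 0.158, without a filter on low counts 0.123 and under upper quartile scaling 0.896, and with total counts in place of TMM scaling the value turned to -0.018. The deleted exons are not given, and reads from any exons that the knockout leaves in place would be included in these counts. The counts therefore check the label only in direction, and the source of the remaining reads was not tested.

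Most expressed genes differed between the KO cell types. Among 14307 tested genes, 11263 (78.7%) passed: 5608 (39.2%) were higher in germinal center B cells and 5655 (39.5%) were lower. Of these, 2552 (17.8%) were at least 2-fold higher and 2754 (19.2%) at least 2-fold lower. With 78.7% of all genes called, a single call carries little by itself, and the counts for gene lists below are read against 39.2% and 39.5%. The median log2 fold change over all tested genes was -0.017. Under upper quartile scaling or total counts it moved to -0.17 or -0.19, with 4818 genes higher and 6456 lower under the first and 4704 and 6605 under the second, so the near balance of the 2 directions depends on the scaling, and log2 differences within about 0.2 of 0 keep no certain sign.

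The WT comparison shares no library with the KO comparison and served as a reference from other libraries for which differences persisted. In WT, 11852 of 14426 tested genes passed (82.2%), 5816 (40.3%) higher and 6036 (41.8%) lower, and 2863 (19.8%) were at least 2-fold higher and 3502 (24.3%) at least 2-fold lower in germinal center B cells. Of the 2863 genes higher in WT, 2571 (89.8%) were also higher in KO and 2107 (73.6%) also by at least 2-fold, while 9 were lower, 109 did not pass and 174 were not tested in KO. Of the 3502 genes lower in WT, 3039 (86.8%) were also lower in KO and 2312 (66.0%) also by at least 2-fold, while 23 were higher, 261 did not pass and 179 were not tested. Direction was therefore shared by most of these genes, and the size of the difference less so. The shares of 89.8% and 86.8% fell to 86.2% and 77.6% with DESeq2. Without a filter on low counts they were 80.0% and 73.0%. At any fold, 9737 (82.2%) of the 11852 genes that passed in WT passed in the same direction in KO and 242 (2.04%) in the opposite one, so 97.6% of the 9979 genes that passed in both had 1 direction. The counts of shared direction for gene lists below are read against these shares.

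The 2689 WT-higher genes tested in both comparisons had a median log2 fold change of 1.73 in WT and 1.54 in KO, and the 3323 WT-lower genes had -2.05 in WT and -1.40 in KO. Genes picked for a large value in WT tend to read smaller in any second comparison, so the selection was also made on KO. The 2464 genes at least 2-fold higher in KO and tested in both had medians of 1.68 in KO and 1.79 in WT, and the 2568 at least 2-fold lower had -1.73 in KO and -2.30 in WT. For either choice of genes the WT median was the larger in size. Across the 13948 genes tested in both comparisons, which are not independent of each other, the log2 fold changes had a Pearson r of 0.915.

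The difference itself was tested as an interaction over all 8 libraries, KO minus WT, and a value of 0 means that the cell types differ equally in both genotypes. Of 14992 genes, 4685 (31.2%) passed, 2621 (17.5%) positive and 2064 (13.8%) negative. The counts of passing differences for gene lists below are read against 17.5% and 13.8%. With total counts the split was even, at 2391 and 2397, and DESeq2 called 2645, of which 1435 were positive and 1210 negative. With edgeR and TMM scaling, 944 (6.3%) genes were positive and 231 (1.54%) negative at 2-fold and above. The difference was toward 0 for 1365 (39.0%) of the WT-lower genes and away from 0 for 61 (1.74%). Among WT-higher genes it was toward 0 for 824 (28.8%) and away for 115 (4.02%). This term combines the KO effect in germinal center B cells with that in activated B cells, so levels in all 4 groups are given for the main genes below.

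**Figure D2:**
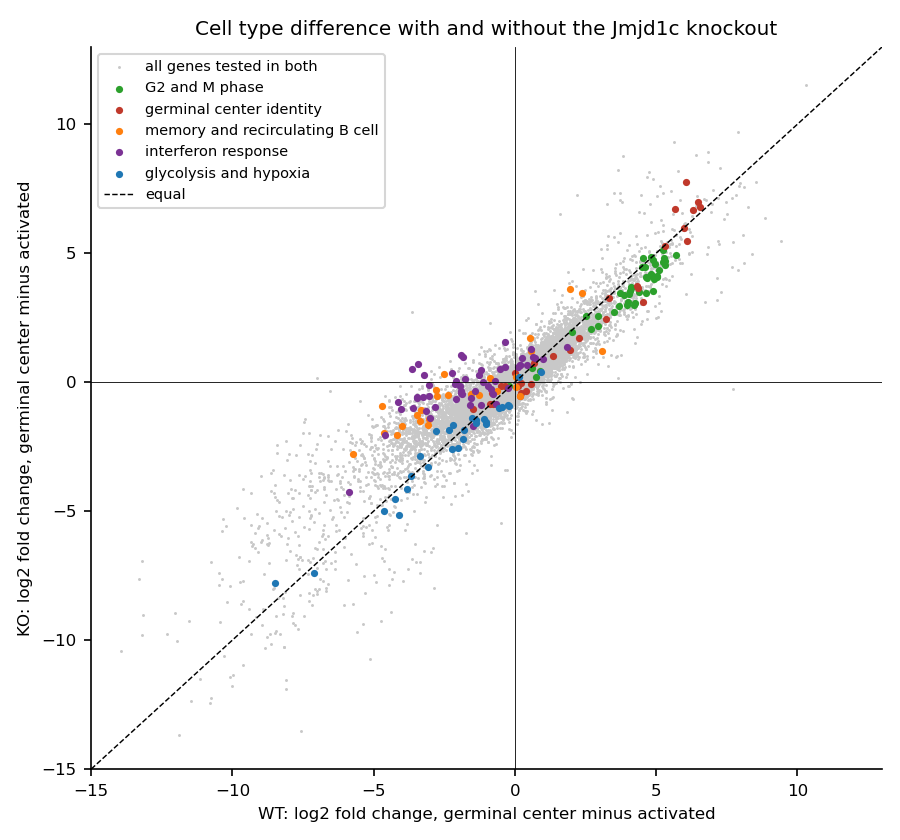
Log2 fold change, germinal center minus activated, in WT (horizontal axis) and KO (vertical axis) for 13948 genes tested in both (grey), with 5 gene lists in color and a dashed line of equality. Points run along the line with a Pearson r of 0.915, G2 and M phase genes lie at the upper right, glycolysis and hypoxia genes at the lower left near the line, and many interferon response and memory genes lie above the line.

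Several of the genes furthest above the activated level in KO germinal center B cells were known germinal center genes. Among the 10 highest by the rule for named genes were Gcsam, an adaptor that slows the migration of germinal center B cells, at a log2 fold change of 7.78, the transcription factor gene Mef2b at 6.97, the nuclear GTPase gene Nuggc at 6.78, and Mybl1, of the MYB family, at 6.7. Fos, a subunit of the AP-1 transcription factor, was at 7.46, Ankle1, an endonuclease gene, at 6.61, and the linker histone gene H1f10 at 6.34, uncertain because exons of the opposite strand cover 17.5% of its exon length. Evc, a gene of the primary cilium, had 141 and 115 counts in germinal center and 0 and 2 in activated libraries, a ratio of 154 with a 95% counting interval from 42.1 to 1276. Mir6236, a locus annotated as a microRNA hairpin, had 356 and 324 counts against 0, at least 272-fold higher (floor of 3 counts over the activated group).

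The 10 lowest genes had no count in either KO germinal center library and are known mainly from granulocytes and other myeloid cells. Lcn2, a neutrophil granule protein gene, had 1896 and 1628 counts in the activated libraries and was at least 978-fold lower in germinal center B cells. Camp, the cathelicidin gene, had 1854 and 1384 counts and was at least 899-fold lower. Retnlg (at least 364-fold) and Cd177 (at least 209.8-fold) are also neutrophil genes. Ear1 (at least 417-fold), Ear6 (at least 261-fold) and the peroxidase gene Epx (at least 225-fold) are eosinophil genes, and reads of Ear1 and Ear6 may be shared with their close copies. Thbs1 (thrombospondin, at least 401-fold), Alox15 (a lipoxygenase, at least 286-fold) and F10 (coagulation factor X, at least 221-fold) are expressed in macrophages among other cells. Beside these counts stand the summed neutrophil markers of 2357 and 1949 CPM in the same activated libraries. The lower end of this ranking thus lists genes known mainly from myeloid cells, and the B cell genes are described by list.

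Of the germinal center identity genes in KO, 18 of 30 tested members were higher, 10 were lower and 2 did not pass, with a median log2 fold change of 1.14 against 1.66 in WT and -0.017 over all genes. Of the 29 that passed in WT, 23 (79.3%) passed in the same direction in KO, near the 82.2% of all genes, and 4 in the opposite one. The difference between genotypes passed for 7 genes in the positive and 13 in the negative direction, beside 17.5% and 13.8% of all genes. Mef2b (chromosome 8, 70139711 to 70167488, plus strand) read 269 and 268 CPM in germinal center and 2.53 and 1.69 CPM in activated B cells, a log2 fold change of 6.97 (SE 0.1, edgeR adjusted p = 1.74e-29). Gcsam read 105 and 101 CPM in germinal center and 0.607 and 0.299 CPM in activated B cells. The groups did not overlap for either gene, which the rule for the 10 highest genes required.

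For Gcsam and Mybl1 the fold was no smaller in KO than in WT although the germinal center level was lower in KO, and the activated level was lower too. Gcsam stood at 105 and 101 and 352 and 353 CPM in KO and WT germinal center and 0.607 and 0.299 and 4.73 and 5.62 CPM in activated B cells, with a difference of 1.71 between genotypes (SE 0.4, adjusted p = 3.53e-04), that is a larger fold in KO. Its KO activated value rests on 6 and 3 counts. Mybl1 stood at 266 and 261 CPM in KO germinal center libraries against 788 and 772 CPM in the WT ones and at 2.73 and 2.29 against 9.87 and 9.56 CPM in activated B cells, with log2 fold changes of 6.7 and 6.3 and a difference that did not pass (0.38, adjusted p = 0.188).

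Bcl6, the gene of the central repressor, was higher in germinal center B cells of both genotypes, by less in KO. It lies on chromosome 16, 23965052 to 23988852, minus strand, and read 293 and 309 CPM in germinal center and 121 and 130.2 CPM in activated B cells in KO, a log2 fold change of 1.25 (SE 0.052) against 1.96 in WT, and the difference of -0.74 passed (SE 0.073, adjusted p = 4.10e-15). Activated levels were close in both genotypes (112 and 114 CPM in WT), and germinal center levels were not (441 and 461 CPM in WT). Smaller folds in KO than in WT, with a difference that passed, were also found for Ezh2, the H3K27 methyltransferase gene (1.7 against 2.26 in WT, difference -0.57), for Basp1 (3.1 against 4.52, difference -1.44), for the semaphorin receptor gene Plxnb2 (2.47 against 3.22, difference -0.77) and for Rgs13, a regulator of chemokine receptor signals (3.73 against 4.34, difference -0.63). The Rgs13 difference no longer passed without WT activated library 2 (-0.46, adjusted p = 0.0891).

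The 4 genes of this list that passed in opposite directions were Bach2, Gna13, Cxcr4 and Spib, of which Gna13 also did so under both upper quartile scaling and total counts. Bach2, a repressor that delays plasma cell fate, read 221 and 222 CPM in KO germinal center and 309 and 332 CPM in KO activated B cells, and 404 and 395 against 348 and 343 CPM in WT. Its log2 fold change was -0.55 in KO and 0.18 in WT (difference -0.75, SE 0.068, adjusted p = 1.30e-16), and the WT value was 0.034 (adjusted p = 0.507) under upper quartile scaling. Gna13, the G protein through which S1PR2 signals, was at -0.33 in KO and 0.41 in WT, and the chemokine receptor gene Cxcr4, which draws cells to the dark zone, at -0.43 and 0.23 (0.081 in WT under upper quartile scaling, adjusted p = 0.118). Spib, an ETS factor gene, was at -0.16 and 0.13, a KO value that lost its call without either KO germinal center library (adjusted p = 0.0707 and 0.0694), and its WT value was -0.02 under upper quartile scaling. Pou2af1, a B cell coactivator gene, did not pass in KO, at -0.065, and was at 0.58 in WT (difference -0.67).

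**Figure D3:**
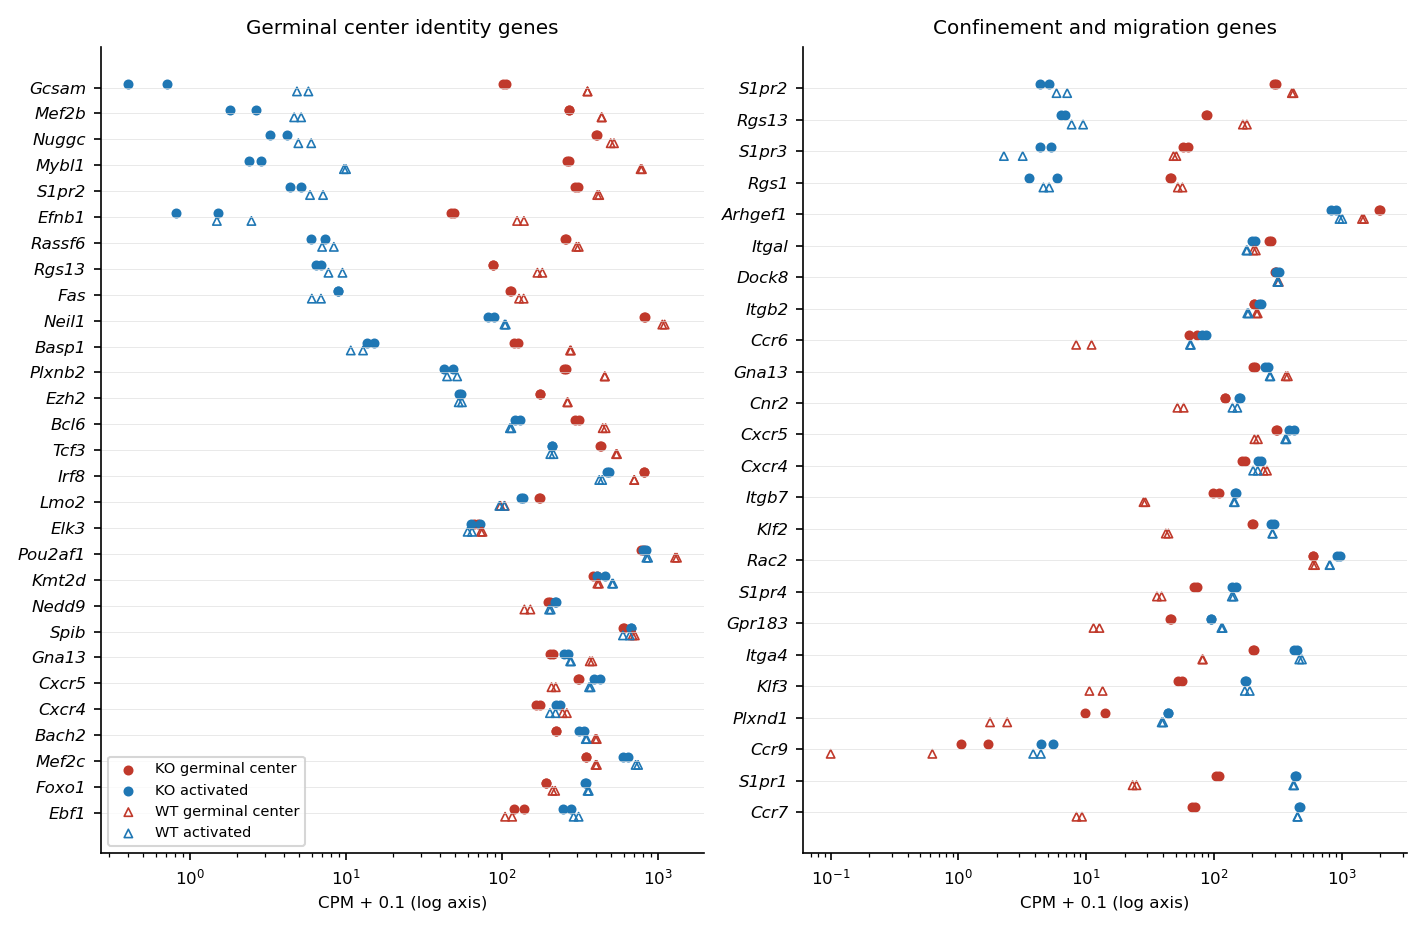
CPM plus 0.1 (log axis) of 29 germinal center identity genes and 24 confinement and migration genes in each library, ordered by the KO log2 fold change, with filled circles for KO, open triangles for WT, red for germinal center and blue for activated B cells. The genes at the top left separate by cell type in both genotypes, and in the lower part of the right panel the KO germinal center circles lie between the WT germinal center triangles and the activated libraries.

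Genes that govern whether B cells leave the follicle differed between the cell types by less in KO than in WT. Of the confinement and migration genes, 6 of 25 tested members were higher, 18 were lower and 1 did not pass, against 39.2% and 39.5% of all genes. The median was -0.43 in KO and -1.44 in WT. The difference passed for 16 genes in the positive and 5 in the negative direction, beside 17.5% and 13.8% of all genes. S1pr2 was at 5.99 (5.98 in WT) and Rgs1, an inhibitor of chemokine receptor signals, at 3.29 (3.47 in WT), while Gna13 passed in opposite directions, as given above. The exit and homing genes described next were lower in germinal center B cells of both genotypes, by less in KO.

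Ccr7, the receptor that draws cells to the T zone (chromosome 11, 99144196 to 99155077, minus strand), read 67.5 and 70.3 CPM in germinal center and 473 and 459.6 CPM in activated B cells in KO and 8.29 and 9.17 against 449 and 453 CPM in WT. Its log2 fold change was -2.77 in KO and -5.71 in WT, and the difference was 2.92 (SE 0.11, edgeR adjusted p = 7.20e-43). The activated levels were close in both genotypes, so the germinal center level carried the difference. S1pr1, the receptor for exit into the blood, read 103 and 109 CPM in germinal center and 439 and 432 CPM in activated B cells in KO and 23.0 and 24.6 against 424 and 417 CPM in WT, and was at -2.05 in KO and -4.17 in WT (difference 2.1).

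Klf2, a transcription factor of resting and recirculating lymphocytes, showed the same shift. It read 203 and 197 CPM in germinal center and 293 and 279 CPM in activated B cells in KO, beside 41.9 and 43.9 CPM in germinal center B cells of WT mice. Its log2 fold change was -0.53 in KO and -2.77 in WT (difference 2.22, SE 0.077, adjusted p = 3.40e-45). Klf3 (-1.73 against -3.95), the oxysterol receptor gene Gpr183 (-1.07 against -3.31), the integrin genes Itgb7 (-0.51 against -2.37) and Itga4 (-1.1 against -2.58), and the semaphorin receptor gene Plxnd1 (-1.89 against -4.34) were also lower in germinal center B cells by less in KO. Their differences were 2.21, 2.22, 1.84, 1.46 and 2.43. Ccr6, a chemokine receptor gene of memory precursors, went from -2.81 in WT to -0.3 in KO (difference 2.49), and the KO value no longer passed without germinal center library 2 (-0.18, adjusted p = 0.0716).

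Memory and recirculating B cell genes, of which several are in the list above, were lower in germinal center B cells in number but not by much. In KO, 7 of 26 tested members were higher, 18 were lower and 1 did not pass, with a median of -0.51 against -2.44 in WT, and the difference passed for 21 genes in the positive and 3 in the negative direction. Cd38, an ectoenzyme that mouse germinal center B cells lose, read 86.1 and 86.7 CPM in germinal center and 235 and 251 CPM in activated B cells in KO, beside 23.2 and 23.8 CPM in germinal center B cells of WT mice (-1.5 in KO, -3.36 in WT, difference 1.84). Cd55, a complement regulator gene, was at -1.27 in KO and -3.47 in WT. Cr2, the complement receptor CD21, was higher in germinal center B cells, at 1.21 in KO and 0.59 in WT. The survival gene Bcl2, which germinal center B cells repress, read 65.2 and 60.2 CPM in germinal center and 105 and 126 CPM in activated B cells in KO and 9.23 and 7.23 against 121 and 119 CPM in WT. Its log2 fold change was -0.9 in KO and -3.91 in WT, a difference of 2.99 (SE 0.13, adjusted p = 1.00e-37). KO germinal center B cells lay below the activated ones for Cd38 and Bcl2 in every library, and above WT germinal center B cells.

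Antibody constant genes went in both directions in KO, those of switched classes included. Of 13 genes, 5 were higher and 8 lower, beside 39.2% and 39.5% of all genes (median -0.66, against 0.037 in WT). Ighg1 was at 4.96 in KO and 6.15 in WT, and Ighg3 at 3.7 and 3.66, while Ighd, of naive cells, was lower at -2.6 in KO and -4.65 in WT. Igha was lower, at -4.48 in KO and -3.81 in WT. Ighg2b and Ighg2c passed in opposite directions. Ighg2c, named after its values were seen, was at -0.98 in KO and 0.2 in WT, where its value was 0.051 (adjusted p = 0.496) under upper quartile scaling. Ighg2b read 435 and 439 CPM in germinal center and 721 and 644 CPM in activated B cells in KO and 669 and 687 against 165 and 151 CPM in WT, with log2 fold changes of -0.66 and 2.07 (difference -2.75, SE 0.072). The KO activated libraries held the higher Ighg2b level of the 2 activated groups. Reads of constant genes may be split among near-identical copies, and these levels sum all B lineage cells in a library.

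Nearly every cell division gene was higher on the germinal center side in KO mice. Of the S phase genes, 47 of 48 tested members were higher, 1 was lower and 0 did not pass, with a median of 2.13 in KO and 2.55 in WT. Of the G2 and M phase genes, 42 of 44 tested members were higher, 0 were lower and 2 did not pass, with medians of 3.6 and 4.45. The difference between genotypes passed for 1 gene in the positive and 27 in the negative direction among S phase genes and for 0 genes in the positive and 31 in the negative direction among G2 and M phase genes. Mki67 read 2236 and 2252 CPM in germinal center and 77.1 and 79.7 CPM in activated B cells, and Top2a, the topoisomerase of mitotic chromosomes, 645 and 696 CPM in germinal center and 34.6 and 37.9 CPM in activated B cells. The log2 fold change was 4.83 for Mki67 and 4.2 for Top2a in KO, beside 5.27 and 4.82 in WT. Mcm5, a subunit of the replicative helicase, was at 4.08 in KO and 4.29 in WT, and Plk1, a mitotic kinase, at 4.57 and 4.97. Of the G1 cyclins and CDK inhibitors with their partners, 14 of 22 tested members were higher, 7 were lower and 1 did not pass (median 0.76, against 1.01 in WT). E2f1 and E2f2, transcription factors that drive S phase, were at 3.68 and 1.7, and the CDK inhibitor gene Cdkn1b, a brake on division, at -2.48 (-3.66 in WT, difference 1.16). In the KO libraries no germinal center value overlapped an activated one for these genes. They were named for a low p in this comparison, in which 78.7% of all genes passed, so this adds no support.

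Some of these genes carry known motif letters in their promoters. The genes were listed for known roles, so the shares below describe the lists and add no support to the comparison. RefSeq promoters of GRCm38.p6 were searched on both strands, from 250 bases before to 50 bases after the start. A gene counted if any of its promoters held the motif. TTTCCCGC or TTTGGCGC, the core of the E2F motif, occurred for 12 of 38 (31.6%) S phase genes with a promoter. Among all 27025 genes with a promoter the share was 1.8%. TTTGAA, the core of the CHR element of mitotic genes, occurred for 26 of 38 (68.4%) G2 and M phase genes and for 20.2% of all. CCAAT occurred for 28 of 38 (73.7%) against 41.1%. A match describes the sequence and shows no binding. Of the following stretches of GRCm38.p6, printed 5′ to 3′ on the gene's strand, Mcm6 is a helicase subunit gene with an E2F core that was chosen after its values were seen, Top2a and Mki67 carry the CHR core, and capitals mark the motif on either strand.
Mcm6, chr1:128359719-128359778, minus strand: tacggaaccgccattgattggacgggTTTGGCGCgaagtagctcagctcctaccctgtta
Top2a, chr11:99024190-99024249, minus strand: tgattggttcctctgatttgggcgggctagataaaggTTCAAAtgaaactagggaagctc
Mki67, chr7:135716445-135716504, minus strand: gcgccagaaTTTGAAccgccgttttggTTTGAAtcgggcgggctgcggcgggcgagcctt
Mcm6 had a KO log2 fold change of 1.79, beside 2.45 in WT, and read 362 and 338 CPM in germinal center and 103 and 97.2 CPM in activated B cells.

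The dark zone and light zone lists stood on different sides of the WT values. Of dark zone genes, 18 of 21 tested members were higher, 3 were lower and 0 did not pass, with a median of 3.47 in KO and 4.13 in WT. Many of them are mitotic genes and are counted above too. Of light zone genes, 16 of 28 tested members were higher, 9 were lower and 3 did not pass, with a median of 0.53 in KO and -0.13 in WT, and the difference passed for 14 genes in the positive and 2 in the negative direction. Cd69, an early activation antigen, read 102 and 106 CPM in germinal center and 29.6 and 28.3 CPM in activated B cells in KO, beside 35.4 and 38.7 CPM in germinal center B cells of WT mice, with log2 fold changes of 1.83 and 0.52 (difference 1.29). Cd86, a costimulatory ligand gene, was higher in both, at 1.79 and 1.89, and its difference did not pass. Traf1, an adaptor of TNF receptors, was at 1.95 and 1.83. Egr3, a target of receptor signals, was lower in germinal center B cells, at -1.81 in KO and -2.85 in WT (difference 1.02).

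Immediate early genes were divided. In KO, 12 of 25 tested members were higher, 12 were lower and 1 did not pass (median -0.19, against -0.87 in WT), and the difference passed for 12 genes in the positive and 0 in the negative direction. Fos read 299 and 296 CPM in germinal center and 1.11 and 2.19 CPM in activated B cells, at 7.46 in KO and 7.02 in WT. Fosb was at 6.3 and 5.17, Jun at 2.51 and 0.47 and Junb at 1.72 and 0.67, all subunits of AP-1. The difference was 2.02 for Jun and 1.04 for Junb. Jun read 160.2 and 159 CPM in germinal center and 28.9 and 26.8 CPM in activated B cells in KO and 34.3 and 33.5 against 21.2 and 26.7 CPM in WT. Dusp2, a phosphatase gene that limits MAP kinase signals, was at 1.56 in KO and 1.57 in WT.

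Signaling genes as lists showed no common direction in KO. Of NF-kappaB pathway genes, 15 of 35 tested members were higher, 15 were lower and 5 did not pass, with a median of 0.044 (-0.43 in WT), and the difference passed for 19 genes in the positive and 0 in the negative direction. Cd40, the receptor for T cell help, was at 1.48 in KO and 1.09 in WT, and the adhesion gene Icam1, with 11.7% of its exon length overlapped by opposite exons, at 1.49 and 1.44. The subunit gene Rel was lower, at -0.95 and -1.02. Of B cell receptor signaling genes, 17 of 36 tested members were higher, 15 were lower and 4 did not pass (median 0.087). The signs of both medians turn under upper quartile scaling or total counts, to -0.11 and -0.064 under the first. The inhibitory receptor genes Cd22 (1.11) and Siglecg (0.91) and the phosphatase gene Ptpn6 (1.07) were all higher on the germinal center side.

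Cytokine receptor and STAT pathway genes were lower in larger part: 9 of 36 tested members were higher, 23 were lower and 4 did not pass, with a median of -0.69 in KO and -0.97 in WT, and the difference passed for 24 genes in the positive and 5 in the negative direction. Il2ra was at -3.71 in KO, Il6st, the shared receptor chain of the interleukin-6 family, at -2.28 (-3.86 in WT), and Ifnar1, a chain of the type I interferon receptor, at -1.35 (-2.25 in WT, difference 0.88). Jak1, a kinase bound to these receptors, was at -0.89. Pim1 and Pim2, kinase genes induced by STATs, went in opposite directions, at 1.03 and -2.42. The 2 differ also in certainty, since 14.5% of the Pim1 exon length overlaps opposite exons.

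Most of the machinery of hypermutation and class switching was higher in germinal center B cells of KO mice. Of its genes, 24 of 32 tested members were higher, 4 were lower and 4 did not pass, with a median of 0.88 in KO and 1.05 in WT. All 28 genes that passed in both comparisons had the same direction, as did 97.6% of all genes. The abasic site protein gene Hmces was at 3.32 (4.13 in WT), Neil1, a DNA glycosylase gene, at 3.26 (3.35 in WT) and Pcna, the sliding clamp of replication, at 1.83 (2.52 in WT). Neil1 read 815 and 823 CPM in germinal center and 80.6 and 88.8 CPM in activated B cells. The histone gene H2ax was at 2.93 and the translesion polymerase gene Rev1 at 2.17, with 10.2% and 26.6% of their exon lengths overlapped by opposite exons.

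Interferon response genes were mostly lower in WT germinal center B cells, and in KO their median lay near 0. In WT, 43 of the tested genes were lower and 8 higher in germinal center B cells, with a median of -1.68. In KO, 19 of 57 tested members were higher, 24 were lower and 14 did not pass, with a median of -0.14, so 24 of 57 lower stood beside 39.5% of all genes. Of the 51 that passed in WT, 31 (60.8%) passed in the same direction in KO, beside 82.2% of all genes, and 9 in the opposite one, of which 6 also did so under upper quartile scaling and under total counts. The difference passed for 45 genes in the positive and 2 in the negative direction, where 17.5% and 13.8% of all genes passed.

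Mx1, an antiviral GTPase gene, read 26.4 and 24.5 CPM in germinal center and 16.5 and 14.7 CPM in activated B cells in KO, and 1.15 and 0.927 against 11.3 and 10.6 CPM in WT. Its log2 fold change was 0.69 in KO and -3.42 in WT (difference 4.09, SE 0.29, edgeR adjusted p = 3.69e-23). Oas2, an oligoadenylate synthetase gene, was at 0.28 in KO and -3.22 in WT (difference 3.47), and its KO value no longer passed under upper quartile scaling (0.13, adjusted p = 0.285). These 2 genes, and Oas1a below, were chosen after their values were seen. For Mx1 and Oas2 the KO germinal center level lay above the KO activated level, and the WT germinal center level lay below the WT activated one. Ifi203, of the PYHIN family whose members have close copies, was at -1.0 in KO and -3.61 in WT (difference 2.59), and Ifi27l2a at 1.55 and -0.36.

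Among the named interferon genes, Stat2, a signal transducer of type I interferon, read 271 and 257 CPM in germinal center and 141 and 135 CPM in activated B cells in KO, at 0.93 (0.25 in WT), and Irf7, an amplifier of the response, was at 1.27 (0.59 in WT). The motif searched was GAAA, any 2 bases and GAAA, the core of the interferon-stimulated response element. It occurred for 24 of 45 (53.3%) genes of this list with a promoter and for 3.99% of all genes with one of the same length. The following stretches of GRCm38.p6 from RefSeq show it in capitals on either strand, in 2 genes of the list whose cell type difference changed between genotypes.
Oas1a, chr5:120907526-120907585, minus strand: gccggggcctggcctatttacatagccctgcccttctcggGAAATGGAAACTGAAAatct
Stat2, chr10:128270251-128270310, plus strand: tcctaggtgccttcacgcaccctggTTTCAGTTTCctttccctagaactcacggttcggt
Oas1a, an oligoadenylate synthetase gene, was at 1.0 in KO and -1.85 in WT (difference 2.83), and the difference for Stat2 was 0.66.

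The MHC class II and presentation genes that passed in WT kept their direction in KO. MHC class I genes are not part of this list. Of MHC class II and presentation genes, 14 of 20 tested members were higher, 5 were lower and 1 did not pass, with a median of 0.5 in KO and 0.55 in WT, and all 17 that passed in WT had the same direction in KO, beside 82.2% of all genes. Ciita, the master regulator of class II genes, was at 1.4 in KO and 1.19 in WT. The peptide exchange gene H2-DMb1 was at 1.75 and the class II chain gene H2-Ab1 at 0.92.

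Respiratory chain transcripts of both genomes were higher in germinal center B cells of KO mice, with opposite relations to WT. All 13 mitochondrially encoded genes were higher, with a median of 2.7 in KO and 1.97 in WT, and the difference passed for 9 genes in the positive and 0 in the negative direction. Of the nuclear-encoded genes, 54 of 62 tested members were higher, 5 were lower and 3 did not pass, with a median of 0.86 in KO and 1.11 in WT, and the difference passed for 0 genes in the positive and 34 in the negative direction. mt-Cytb, of complex III, was at 2.7 in KO and 1.97 in WT, and mt-Nd1, of complex I, at 2.12 and 1.33. Cyc1, cytochrome c1 of complex III from the nucleus, was at 1.51 and 1.56, and Cox5b, of complex IV, at 1.8 and 2.18. Beside these values stand the mitochondrial shares of the libraries, 9.20% and 9.52% in KO germinal center libraries against 5.51% and 5.27% in the WT ones.

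Glycolysis and hypoxia genes were lower in germinal center B cells of both genotypes: 1 of 28 tested members was higher, 26 were lower and 1 did not pass in KO, with a median of -1.85, and -1.92 in WT. Bnip3, a mitophagy gene induced by low oxygen, read 4.52 and 4.16 CPM in germinal center and 141 and 134 CPM in activated B cells, at -4.99 in KO and -4.64 in WT, with 22.3% of its exon length overlapped by opposite exons. The glycolytic enzyme genes Pgk1 (-2.56), Aldoa (-2.57), Aldoc (-4.53) and Eno1 (-2.21) followed. All 27 genes of this list that passed in WT had the same direction in KO, beside 82.2% of all genes.

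Ribosome biogenesis genes stood on the germinal center side in KO, with 37 of 40 higher, 1 lower and 2 not passing (median 1.08 in KO and 1.05 in WT). Nop56, a core protein of small nucleolar ribonucleoproteins, was at 1.86 (1.72 in WT), and Bop1, of the large subunit pathway, at 1.97 (2.05 in WT). Cholesterol and fatty acid synthesis genes had a smaller difference in KO than in WT: 14 of 31 tested members were higher, 6 were lower and 11 did not pass, with a median of 0.14 in KO and 0.73 in WT, and the difference passed for 1 gene in the positive and 17 in the negative direction. The desaturase gene Fads1 was at 1.77 and 2.77 (difference -1.02, no longer passing without WT activated library 2, at -0.72 and adjusted p = 0.0532), and Fasn, fatty acid synthase, was at 1.35 and 1.5. The KO median of this list turned to -0.0086 and -0.034 under upper quartile scaling and total counts.

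**Figure D4:**
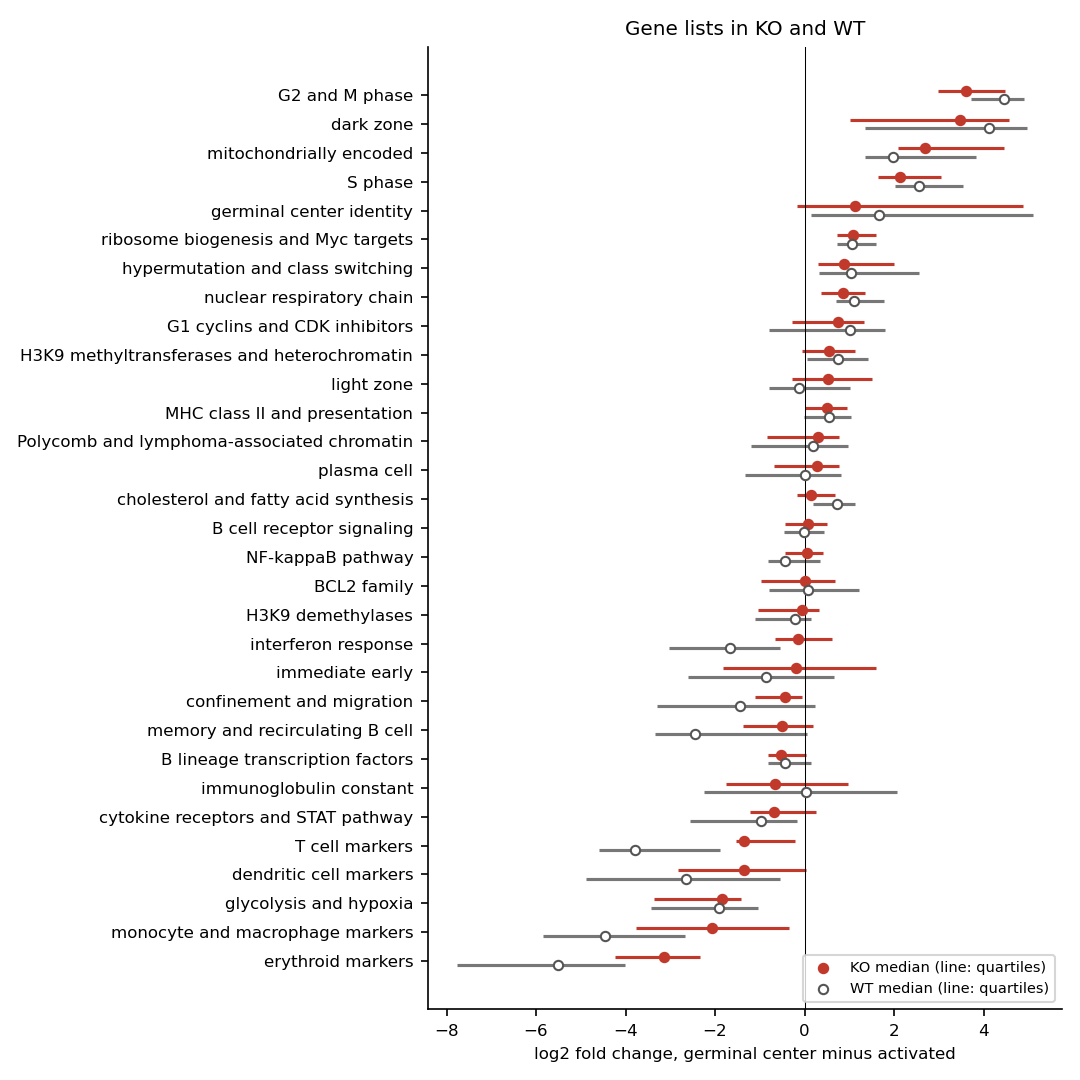
Median log2 fold change, germinal center minus activated, of each gene list with at least 5 tested members, in KO (red filled) and WT (grey open), with lines for the quartiles over genes; the neutrophil list is left out, and genes with no count in a group enter with fitted values. G2 and M phase genes lie highest in KO at a median of 3.60, glycolysis and hypoxia genes lie near -1.85 beside -1.92 in WT, and the interferon, memory and confinement medians lie nearer 0 in KO than in WT.

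Plasma cell genes had no single direction in KO: 14 of 25 tested members were higher, 9 were lower and 2 did not pass (median 0.28, against 0.019 in WT). Jchain, which joins antibody multimers, was at 1.27 in KO and 1.89 in WT, the chaperone gene Hspa5 at 1.6 and 1.26, and Cd93, a surface marker of long-lived plasma cells, at -3.1 and -4.43. B lineage transcription factors were lower in larger part: 5 of 24 tested members were higher, 15 were lower and 4 did not pass (median -0.52, against -0.44 in WT). Ebf1, an early B cell factor gene, read 119 and 138 CPM in germinal center and 247 and 275 CPM in activated B cells in KO (-1.03, -1.46 in WT), and Foxo1, a factor of the dark zone program, was at -0.85 (-0.76 in WT), as transcripts. Irf8 (0.75) and Tcf3 (1.02) were higher. Of BCL2 family genes, 6 of 15 tested members were higher, 5 were lower and 4 did not pass. Beside Bcl2, Mcl1, a survival gene on which germinal center B cells depend, was at -0.5, and the death gene Bcl2l11 at -1.13 in KO.

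Relatives of Jmjd1c went in both directions. Of the H3K9 demethylase genes, 5 of 13 tested members were higher, 6 were lower and 2 did not pass (median -0.063, against -0.22 in WT). Kdm3a, the closest relative with Kdm3b, was at -1.87 in KO and -2.09 in WT, and read 91.8 and 83.3 CPM in germinal center and 315 and 317 CPM in activated B cells. Phf2 was at -0.46, Kdm4b at -1.05, Kdm7a at -1.47 and Phf8 at -1.05, all passing. Of H3K9 methyltransferase and heterochromatin genes, 13 of 20 tested members were higher, 4 were lower and 3 did not pass (median 0.56), with the maintenance methyltransferase gene Dnmt1 at 2.72 and its partner Uhrf1 at 4.46. Of Polycomb and lymphoma-associated chromatin genes, 16 of 30 tested members were higher, 14 were lower and 0 did not pass (median 0.29), and all 30 passed in WT with the same direction, beside 82.2% of all genes. Ezh1 was at -1.75 and Ezh2 at 1.7, and Tet2, a DNA demethylation gene mutated in lymphoma, at -1.93 (-3.24 in WT, difference 1.29).

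The largest differences between the genotypes in the cell type effect were of several kinds. The most negative one was Slc15a2, a peptide transporter gene (chromosome 16, 36750177 to 36784962, minus strand), which read 87.9 and 86.6 CPM in germinal center and 102 and 105 CPM in activated B cells in KO and 135 and 133 against 0.720 and 0.493 CPM in WT. Its log2 fold change was -0.26 in KO and 7.73 in WT (difference -8.01, SE 0.17, edgeR adjusted p = 4.92e-62). KO activated B cells held it and WT activated B cells nearly lacked it, while both germinal center groups held it. Celsr1, a planar polarity cadherin gene, had a difference of -2.75 and Rab44, a small GTPase gene, one of -2.76. Celsr1 read 4.65 and 5.0 CPM in germinal center and 2.02 and 1.3 CPM in activated B cells in KO and 27.0 and 26.3 against 1.65 and 1.08 CPM in WT.

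Among the 6 most positive differences by the rule were Gpnmb, Iqgap2, Ly6c2, Ptafr and Lilr4b, with 0 or 1 counts over the WT germinal center libraries, so their fitted sizes are not bounds and are not given. Ly6c2, whose family has close copies, had 78 and 57 counts in KO germinal center and 0 and 1 in WT germinal center libraries. Lilr4b had 18 and 19 against 0 and 1, and Gpnmb, a macrophage glycoprotein gene, 4 and 5 against 0 and 0. Camp and Mmp9, neutrophil genes among the 6 most negative, had no count in KO germinal center libraries, and 0 and 4 (Camp) and 1 and 4 (Mmp9) in WT ones. Beside these small counts, summed erythroid markers stood at 71.2 and 84.5 CPM in KO and 9.86 and 12.7 CPM in WT germinal center libraries, and monocyte and macrophage markers at 253 and 271 and 118 and 112 CPM. Their part in the differences was not tested.

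In all, 242 genes passed in both comparisons with opposite directions, 147 of them higher and 95 lower in KO germinal center B cells. The difference passed for each of these genes, which their choice from the same libraries made nearly certain, so this adds no support. Which genes these were depended on the scaling: upper quartile scaling gave 248, of which 118 were among the 242, and total counts gave 264, of which 112 were. Of the 242, 9 belong to the interferon list, among them Mx1 and Oas2. Klf4, a transcription factor that restrains B cell division, chosen after its values were seen, read 21.9 and 23.0 CPM in germinal center and 3.14 and 5.78 CPM in activated B cells in KO and 3.57 and 3.15 against 5.45 and 6.51 CPM in WT (2.31 in KO and -0.87 in WT). Against 13948 genes tested in both, opposite calls were few.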

How the data were processed

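RNA was sequenced from 2 libraries in each of 4 groups, grouped by title. The values deposited by the authors are raw counts of reads per gene, in whole numbers. The tools Trimmomatic and DESeq2 and the build mm10 are named per the submitters' processing notes. Not given in the sources used here are the aligner, the counter, all versions and the strand setting, and for that reason the antisense overlap of a named gene is printed where it exceeds 10% of a gene's exon length. The 5 entries that stand for no gene were left out of library sizes and tests, and reads assigned to no feature were 47.2% to 53.9% of all entries. Positions come from GENCODE M21 (GRCm38, the assembly of mm10), matched for 54349 of 55401 identifiers. Promoters come from RefSeq.

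Genes were filtered with filterByExpr, scaled by TMM and tested by the quasi-likelihood F test of edgeR 4.0.16 (R 4.3.3), and passed at a Benjamini-Hochberg adjusted p under 0.05. KO and WT were fitted on their own 4 libraries and the difference on all 8. The SE is the absolute log2 fold change over the square root of F. CPM come from 1 scaling over 8 libraries, so their ratios differ slightly from the fits. The counting interval is an exact binomial one at 95%, and floors and intervals cover counting error only. Replicates differed by more than sampling noise (chi-square per degree of freedom 1.38 and 2.28 in KO).

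Members and the 35 lists (826 symbols, 825 matched) were chosen with earlier results of these data known. Named genes are Jmjd1c, the 10 highest and 10 lowest in KO and 6 per direction for the difference (passing, mean count of at least 50, groups not overlapping, no predicted genes or variable segments), all germinal center identity and confinement genes, and up to 6 per other list with the lowest p in the KO comparison. Genes outside this rule are marked in the text, apart from the cell type markers, and some genes that the rule names are not reported here. Counts were simulated for the KO comparison (13889 genes), with 100 genes changed by 1.5-fold, 50 by 2-fold and 50 by 4-fold. Of these, 66% were recovered at 1.5-fold, 80% at 2-fold and 98% at 4-fold, and 3.12% of 160 calls were false. In the data 78.7% of genes passed, so the simulation does not test how scaling or false calls behave there. Alternatives were DESeq2 (1.42.0) size factors, upper quartile scaling, total counts, DESeq2 itself, other filters, leaving out mitochondrial and immunoglobulin genes, single libraries, a replicate block and 1 fit over all 8 libraries.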

Additional observations from a re-analysis of the deposited data

Results flagged for a closer look

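For 45 of the named genes, 38 positive and 7 negative, the germinal center against activated difference itself differed between KO and WT by at least 2-fold in the interaction test (edgeR, adjusted p under 0.05) with more than 3 counts in each of the 4 groups. The value after each gene is that difference on the log2 scale, KO minus WT. Another 10 named genes met the fold and the test but had 3 or fewer counts in a group, and are left out. Groups of 2 libraries allow no test for a library that stands apart.

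The most negative value was that of the transporter gene Slc15a2 (-8.01), followed by Rab44 (-2.76), Ighg2b (-2.75) and Celsr1 (-2.75). The other negative values were Basp1 (-1.44), Ighg1 (-1.21) and Fads1 (-1.02).

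Positive values in migration and memory genes were Ccr7 (2.92), Ccr6 (2.49), Plxnd1 (2.43), Klf2 (2.22), Gpr183 (2.22), Klf3 (2.21), Cd55 (2.18), S1pr1 (2.1), Ccr9 (2.03), Cd38 (1.84), Itgb7 (1.84), Itga4 (1.46) and Cnr2 (1.03). In genes of naive cells, survival and cell cycle control they were Ighd (2.04), Bcl2 (2.99), Rb1 (1.2) and Cdkn1b (1.16). Other positive values were those of the receptor chain gene Il6st (1.56), the transcription factor gene Zeb2 (1.39) and the DNA demethylation gene Tet2 (1.29). In immediate early and light zone genes the positive values were Jun (2.02), Cd69 (1.29), Fosb (1.11), Junb (1.04) and Egr3 (1.02), and in germinal center genes Gcsam (1.71). In interferon response genes they were Ifi203 (2.59) and Ifi27l2a (1.89), and in the plasma cell gene Cd93 1.31.

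Exons of the opposite strand cover 19.0% of the exon length of Ccr9, 14.9% of that of Rb1 and 15.5% of that of Alas2, whose values are therefore uncertain. The remaining positive values were in marker genes of other cell types: erythroid Hba-a1 (3.75), Hbb-bs (2.94), Alas2 (1.4) and Car2 (1.3), monocyte and macrophage Lyz2 (2.62), Mpeg1 (1.79) and Adgre1 (1.44), NK cell Prf1 (3.25) and T cell Tcf7 (1.39). Summed erythroid markers stood at 71.2 and 84.5 CPM in KO and 9.86 and 12.7 CPM in WT germinal center libraries. Summed monocyte and macrophage markers stood at 253 and 271 and 118 and 112 CPM. Their part in the other values was not tested.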

How the results depend on the processing

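Calls of the named genes in the KO comparison kept the side of the threshold, and the direction where they passed, in 3017 alternative values. Another 15 no longer passed, 9 newly passed and 1 reversed. A change of sign in a value that passed in neither setting is counted as kept. The differences of the named genes between genotypes kept both in this sense in 3605 values, while 100 no longer passed and 39 newly passed. The reversed value was Jmjd1c with total counts, at -0.018. DESeq2 called 2645 differences between genotypes, 1435 positive and 1210 negative, against 4685, 2621 and 2064 with edgeR; the cause was not tested. Requiring at least 2-fold left 5306 genes in the KO comparison, 2552 higher and 2754 lower, and selecting WT genes at any fold gave 4858 higher and 4879 lower genes that passed alike in KO, by construction of those limits. Without single libraries the KO comparison called 10498 to 10976 genes and the difference 3851 to 4493, and the WT differences at 2-fold that passed alike in KO numbered 2497 to 2635 higher and 2900 to 3035 lower. An arm left with 1 library is assumed to vary like the others. Of the list medians, 329 values moved by less than the spread between replicates and 111 by more.

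Replicate numbers were checked for pairing: deviations of same-numbered libraries had a correlation of -0.019 in KO and -0.0025 in WT over all tested genes. Counting noise can hide a shared origin, so these values do not decide whether same-numbered libraries are paired. With the replicate block, 11086 genes passed in the KO comparison (5527 higher, 5559 lower), 4675 differences passed, and 2552 higher and 3010 lower WT differences passed alike in KO. Depth limits genes near 1 CPM, at about 9 counts in a KO library before the scaling factors, and fitted folds of genes with 0 counts in a group are no bounds.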
